A study of Mus musculus with 44 samples.

Results

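The 3 lymphomas described here, with the title numbers D55, D92 and D121, had the lowest Cd79a values of 43 Eµ-myc lymphomas, and they are set against the other 40. They were chosen on these same arrays as those lowest in Cd79a, Cd79b and other B cell genes, so the low level of such genes is how they were picked and not a result. The series held 44 arrays, 1 of a spleen, which entered no comparison. Each array was hybridised with total RNA of a mouse that carries the Eµ-myc transgene, a Myc gene driven by the enhancer of the immunoglobulin heavy chain locus and therefore active in B lineage cells. All groups share this transgene, so the 40 other lymphomas are not a normal control. The labels give no strain, age, sex or treatment, they do not say whether a tumour was frozen whole or as a pellet of dissociated cells, nor whether any 2 lymphomas came from the same animal. The p-values below therefore measure the spread between these arrays. In such bulk RNA, fewer cells of a type and less RNA per cell cannot be told apart.

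B cells are built by a small circuit of transcription factors. E proteins such as Tcf3, then Ebf1 and Pax5, switch on the genes of the B lineage and keep those of other lineages silent, and Pou2af1 assists the octamer-binding factors at immunoglobulin genes. Cd79a and Cd79b are the signalling chains of the B cell receptor. Dendritic cells use another circuit, in which Flt3, a cytokine receptor of progenitors, and the factors Irf8, Tcf4 and Batf3 are known for their parts in plasmacytoid or conventional dendritic cells. Cd8b1, Cd4, Cd7 and the Cd3 chains are surface proteins best known from T cells, although Cd4 is also found on mouse dendritic cells.

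Levels are log2 values per gene, as deposited. Column medians split the arrays into a lower set of 36 lymphomas (set 1, medians 6.22 to 6.46) and a higher set of 7 lymphomas and the spleen (set 2, medians 6.86 to 6.96), and set 2 holds the higher title numbers. D55 and D92 lie in set 1 with 34 other lymphomas, and D121 lies in set 2 with 6. A difference given for a single array is its value minus the mean of the other lymphomas of its own set. D55, D92 and D121 are left out of this mean. Each of the other lymphomas is itself part of it, so its difference is drawn towards the mean, more so in set 2. This favours D55, D92 and D121 wherever they are set against the range or the counts of the others. Close cases may turn on it, and the size of this effect was not tested. The number of arrays limits the precision. The mean 3' minus 5' difference of the control transcripts, a sign of RNA quality, was 0.19 in D55, 0.93 in D92 and 0.34 in D121, against 0.10 to 1.18 in the other lymphomas (median 0.30).

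The description of the 3 as low in B cell markers held fully for Cd79a and only in part for the rest. Cd79a stood at 8.83 in D55 and 6.42 in D92, against 9.37 to 11.99 (median 11.43) in the 34 others of set 1, and at 9.08 in D121, against 10.24 to 11.95 (median 11.59) in the 6 others of set 2. No other lymphoma reached the level of the 3 once set means were removed. The differences were -4.83 in D92, -2.43 in D55 and -2.30 in D121, and the next lymphomas, just outside the group, were D59 at -1.88 and D163 at -1.13. Cd79b followed this order only for D92, at -3.50. D59 came second at -1.65, before D55 at -0.88 and D121 at -0.77, and D83 at -0.74 lay just beyond them.

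Several B cell surface genes were far lower in D92 than in D55 and D121. Cd22, an inhibitory co-receptor of B cells, differed by -4.14 in D92, below all 40 other lymphomas, and by 0.03 in D55 and 0.23 in D121. Ms4a1, which encodes CD20, differed by -3.16 in D92, 0.10 in D55 and 0.53 in D121. Blnk, an adaptor of the B cell receptor, differed by -0.90 in D92, 0.25 in D55 and -0.08 in D121. Ighm, the immunoglobulin mu heavy chain, stood at 12.33 in D55, 11.59 in D92 and 13.33 in D121, all within the range of the other lymphomas, 8.46 to 14.21 over both sets. D55 and D121 thus kept several B cell surface genes at ordinary levels, and they are called Cd79a-low lymphomas here rather than lymphomas without B cell genes. Other B cell genes were low in all 3. Cd37 differed by -1.65 in D55, -1.52 in D92 and -2.19 in D121, and Blk by -2.18, -1.78 and -1.87. Tnfrsf13c differed by -1.72, -2.47 and -1.98 in the same order. Of the 17 kept pan B cell genes, 8 lay below the mean of the others in all 3 and 2 above it. Averaged over 17 measured genes, the pan B cell list differed by -1.76 in D92, -0.54 in D55 and -0.49 in D121, against -1.28 (D59) to 0.62 in the others.

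**Figure D1:**
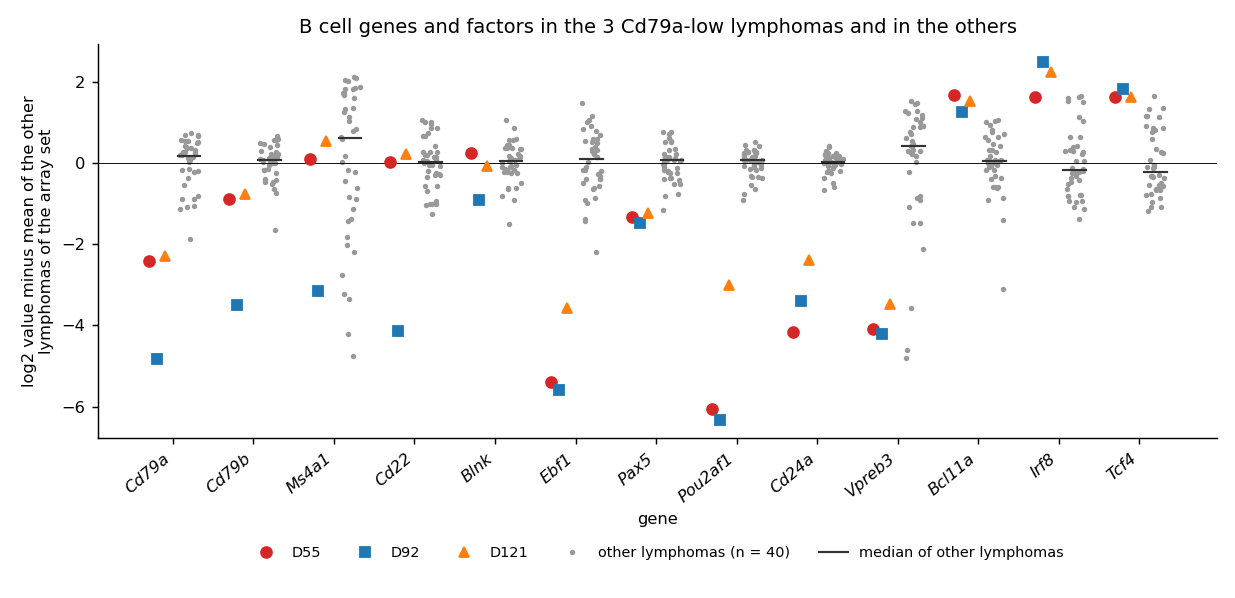
B cell genes and lineage factors. Each point is 1 array, as log2 value minus the mean of the other lymphomas of its array set, with coloured symbols for D55, D92 and D121 and grey points for the 40 other lymphomas (bar, median). Ebf1, Pax5, Pou2af1 and Cd24a lie below every grey point in all 3, Cd22 does so only in D92, and Bcl11a lies above every grey point.

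Ebf1, Pax5 and Pou2af1 were low in all 3, which the choice of the 3 by B cell genes favours. Pou2af1 stood at 5.64 in D55 and 5.36 in D92, against 10.78 to 12.23 (median 11.77) in the others of set 1, and at 9.31 in D121, against 11.77 to 12.62 (median 12.36) in set 2. Ebf1 stood at 3.51 in D55 and 3.30 in D92, against 6.71 to 10.06 (median 9.08), and at 6.04 in D121, against 8.75 to 11.09 (median 9.28). The 3 probe sets of Ebf1 gave mean differences of -4.93, -3.62 and -4.86. Pax5 differed by -1.32 in D55, -1.47 in D92 and -1.24 in D121, just below the lowest other lymphoma at -1.15. Its only probe set lay above the set median in just 12 of the 43 lymphoma arrays, so Pax5 read low in most of the others too. In each of these genes D121 was the least reduced, and none of the 40 others overlapped with the 3.

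Of the 17 kept genes of the list of B lineage factors, 9 lay below the mean of the others in all 3 lymphomas and 4 above it. The list averaged -0.79 in D55, -1.47 in D92 and -0.53 in D121, against -0.62 to 0.52 in the others, so D121 lay inside their range. Below all 40 others were 3 of the 17, beside 0.44% of all 8629 kept genes, and nothing is read from this count, since the 3 were chosen by such genes. Bach2, a repressor of plasma cell differentiation, differed by -2.35 in D55, -2.92 in D92 and -2.13 in D121, with 1 other lymphoma lower than each. Irf4, needed for plasma cells, differed by -1.35, -3.22 and -1.92 in D55, D92 and D121, but its second probe set averaged only -0.21. Tcf3, which encodes the E2A proteins, differed by -1.04, -1.39 and -1.17 in the same order. Among surface genes, Cd24a, a heavily glycosylated adhesion protein of B cell precursors, overlapped with none of the others: it stood at 8.74 in D55 and 9.5 in D92, against 12.24 to 13.32 (median 12.95), and at 11.43 in D121, against 13.60 to 13.99 (median 13.82). Vpreb3, of the pre-B cell receptor family, differed by -4.08, -4.21 and -3.47 in D55, D92 and D121, but 2 or 3 of the others lay lower still. The precursor B cell list averaged -1.74 in D55, -1.26 in D92 and -1.38 in D121, against -1.51 to 3.10 in the others, so on this list the 3 sat at the low edge of a wide range.

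Some factors of the same list went the opposite way. Bcl11a, a zinc finger factor of early lymphoid cells and of plasmacytoid dendritic cells, stood at 9.97 in D55 and 9.53 in D92, against 5.18 to 9.34 (median 8.34), and at 10.56 in D121, against 8.66 to 9.35 (median 9.07). Irf8, used by B cells and dendritic cells, differed by 1.63 in D55, 2.49 in D92 and 2.25 in D121, against -1.38 to 1.64 in the others. Tcf4, the E protein E2-2 on which plasmacytoid dendritic cells depend, differed by 1.63 in D55, 1.83 in D92 and 1.62 in D121, against -1.18 to 1.64. For Irf8, D92 and D121 lay above all 40 others and D55 above 39, and for Tcf4 only D92 lay above all. In Irf8, D78 at 1.621 and D46 at 1.605 lay just below D55, so the rank of D55 may turn on how the mean was taken. The MHC class II list, whose proteins present antigen in B cells and dendritic cells, lay above the mean of the others in all 3 for 7 of 8 genes, and averaged 1.0 in D55, 0.76 in D92 and 0.90 in D121. These averages lay inside the range of the others, -2.53 to 1.96. In the plasma cell list, Ell2, an elongation factor of secreting cells, differed by 3.54 in D55, 3.60 in D92 and 3.23 in D121, against -2.79 to 4.64, and 4 of 10 genes lay above the mean in all 3. Counts of genes on 1 side of the mean in all 3, here and in other lists, are given without the share over all kept genes. Nothing is read from them.

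The promoters of Cd79a and Vpreb3, which were low in the 3, and of Sdc4, the most reduced gene outside the B cell lists, are shown because each holds a motif of 1 of the B lineage factors. The sequences are 300 bases of RefSeq's GRCm38.p6 annotation, from 250 bases before the gene's start, and capitals mark the motif. Cd79a lies at chr7:24897247-24897546 (+ strand), with the E-box CAGGTG, Vpreb3 at chr10:75948050-75948349 (+ strand), with the octamer ATTTGCAT, and Sdc4 at chr2:164443139-164443438 (- strand), with the EBF palindrome, which reads TCCC, any 2 bases and GGGA.
Cd79a: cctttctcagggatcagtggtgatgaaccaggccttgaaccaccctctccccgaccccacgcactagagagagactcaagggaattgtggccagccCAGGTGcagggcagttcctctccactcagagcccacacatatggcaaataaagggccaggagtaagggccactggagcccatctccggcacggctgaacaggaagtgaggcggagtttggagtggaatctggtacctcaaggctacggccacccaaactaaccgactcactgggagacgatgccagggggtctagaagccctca
Vpreb3: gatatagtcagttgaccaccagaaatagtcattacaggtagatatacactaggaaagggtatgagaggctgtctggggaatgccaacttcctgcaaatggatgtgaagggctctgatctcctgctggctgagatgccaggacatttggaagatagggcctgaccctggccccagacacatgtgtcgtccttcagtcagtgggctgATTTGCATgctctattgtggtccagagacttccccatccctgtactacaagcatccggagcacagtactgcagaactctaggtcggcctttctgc
Sdc4: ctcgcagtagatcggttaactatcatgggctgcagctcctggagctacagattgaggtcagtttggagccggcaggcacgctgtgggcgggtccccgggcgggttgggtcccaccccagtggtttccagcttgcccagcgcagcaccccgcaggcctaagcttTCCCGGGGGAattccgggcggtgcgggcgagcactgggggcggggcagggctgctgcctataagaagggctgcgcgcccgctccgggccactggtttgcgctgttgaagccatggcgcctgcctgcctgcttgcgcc
Over 32851 promoters of the same length, read on both strands, the E-box was found in 20.2%, the octamer in 1.74% and the EBF palindrome in 0.904%. Among 16 promoters of the pan B cell genes the E-box was found in 10, the octamer in 2 (Blnk and Vpreb3) and the EBF palindrome in 1 (Cd22). Among 8 promoters of 6 of the 12 most raised genes outside the B cell lists, the E-box was found in 2 and the other motifs in 0. Among 13 promoters of 9 of the 12 most lowered genes, each motif was found in 1, the E-box in Emid1, the octamer in Nmi and the EBF palindrome in Sdc4. A match describes these letters only. The letters of the 3 motifs do not contain each other, and no binding was measured.

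Outside the B cell lists, whose p-values are not given because the lymphomas were chosen by them, 8541 genes were tested. By limma with Benjamini-Hochberg adjustment, 378 genes were higher (4.43%) and 195 lower (2.28%). An unadjusted p under 0.05 was found in 1529 of the 8541, and the list counts at that threshold below are to be read beside this share. Of the 378 genes, 36 had passed the filter only through the 3 Cd79a-low arrays, which favours their call. With the filter set on the other lymphomas, 339 were higher and 192 lower of 8489 genes. Without the array set 331 were higher and 61 lower of 8961 genes tested, since the set was then left out of both the fit and the filter. Over the 8541 genes, with those kept only through the 3 arrays left in, all 3 stood above all 40 others in 92 (1.08%) and below them in 33 (0.386%). Both numbers are favoured by the mean used, in which only the 40 others were included. The counts leaned on each of the 3 arrays: 211 higher and 78 lower genes passed without D55, 189 and 72 without D92, and 264 and 125 without D121. Of the genes called, 113 higher and 37 lower ones passed in all of these fits. With D55 and D121, whose profiles were closely alike, averaged as 1 array, 248 genes were higher and 105 lower.

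The highest shared gene was Cd8b1, the beta chain of the CD8 co-receptor. It stood at 11.16 in D55 and 11.82 in D92, against 4.50 to 10.13 (median 6.06) in the 34 others of set 1, and at 11.46 in D121, against 5.07 to 7.81 (median 6.33) in the 6 others of set 2. The groups did not overlap, and the mean difference was 5.07 ± 0.80 log2 units (SE, adjusted p = 1.55e-05). Cd7, an immunoglobulin superfamily protein of T and NK cells, stood at 11.47 in D55 and 12.01 in D92, against 5.79 to 9.12 (median 6.51), and at 11.50 in D121, against 6.87 to 7.89 (median 7.05). Its difference of 4.77 ± 0.38 (adjusted p = 7.71e-13) was the one with the smallest adjusted p among those named here. Cd4 stood at 8.44 in D55 and 9.86 in D92, against 5.43 to 7.89 (median 6.14), and at 9.23 in D121, against 6.34 to 8.29 (median 6.44). The difference was 2.72 ± 0.41 (adjusted p = 8.78e-06), and a second probe set gave 1.05.

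Cd8a and the Cd3 chains did not pass the test. Cd8a, the alpha chain that pairs with Cd8b1, differed by 0.27 in D55, -0.19 in D92 and 0.24 in D121 (0.10 ± 0.29, adjusted p = 0.905). Its second probe set differed by 1.22 in D55, -0.90 in D92 and 1.25 in D121. Cd3d, Cd3e and Cd3g, the chains of the T cell receptor complex, had differences of -0.38 ± 0.89, -0.20 ± 0.43 and 0.43 ± 1.14 (adjusted p = 0.884, 0.876 and 0.898). Of 11 tested genes of the T cell receptor list 2 were higher, Cd7 and Cd28, and 0 lower, beside 4.43% and 2.28% of all tested genes. The list had a median of 0.43 beside -0.04 for all kept genes, and 4 of the 11 had an unadjusted p under 0.05. Cd2 went the other way in D55 and D121, with differences of -1.34 in D55, 0.92 in D92 and -2.19 in D121. None of 10 genes of the T cell signalling list passed in limma, and 0 had an unadjusted p under 0.05. In the thymocyte list 2 of 11 were higher, Cd8b1 and Cd4, and 2 lower, Hes1 (-1.83 ± 0.44, adjusted p = 0.00467) and Dtx1 (-2.09 ± 0.65, adjusted p = 0.0388), both known targets of Notch. In that list 6 of the 11 had an unadjusted p under 0.05, beside 1529 of all 8541 tested genes. The calls of Hes1 and Dtx1 were lost without D55 (adjusted p = 0.0558 and 0.173) and without D92 (0.0878 and 0.284), and that of Dtx1 also without D121 (0.0897). The average of the T cell receptor list was 1.10 in D55, 0.31 in D92 and 1.34 in D121, against -1.35 to 2.22 in the others, so on this list the 3 lay within the range of the other lymphomas.

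**Figure D2:**
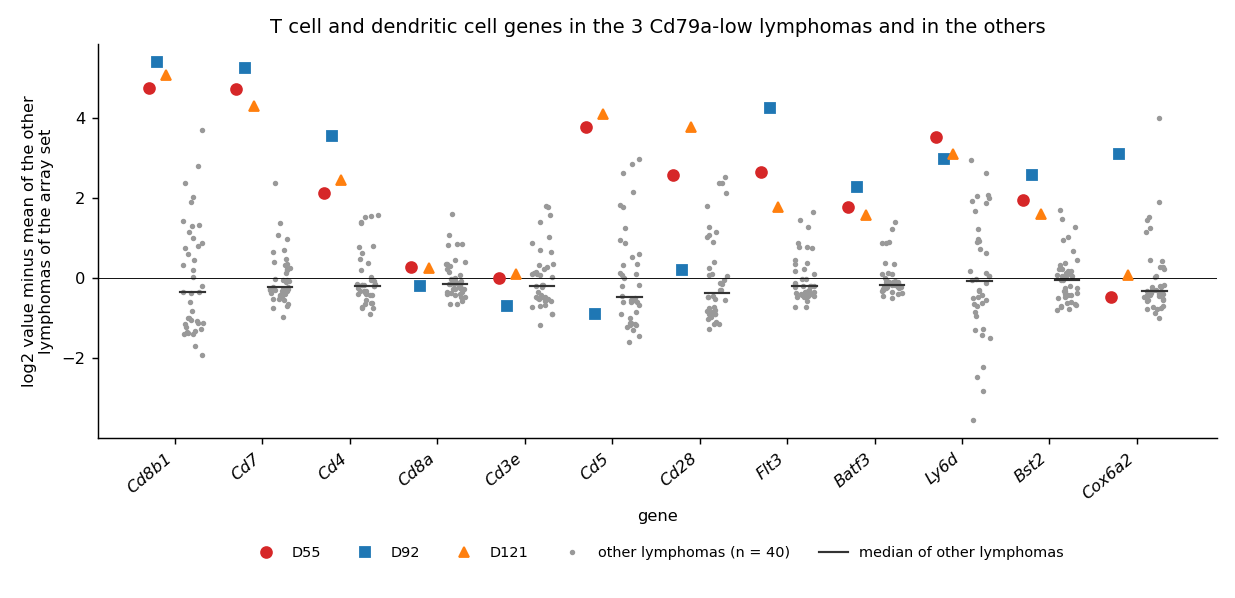
T cell and dendritic cell genes. Each point is 1 array, as log2 value minus the mean of the other lymphomas of its array set, with coloured symbols for D55, D92 and D121 and grey points for the 40 other lymphomas (bar, median). Cd8b1, Cd7, Cd4, Flt3, Batf3 and Ly6d lie above every grey point in all 3, Cd8a and Cd3e lie among the grey points, and of the 3, Cd5 and Cd28 are high in D55 and D121 only, with some grey points near those of Cd28.

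Flt3 and Batf3, genes of dendritic cells, were higher in all 3. Flt3 stood at 9.19 in D55 and 10.79 in D92, against 5.82 to 8.21 (median 6.36), and at 8.65 in D121, against 6.46 to 8.16 (median 6.68), a difference of 2.92 ± 0.38 (adjusted p = 3.34e-07). Batf3 stood at 7.75 in D55 and 8.23 in D92, against 5.46 to 7.37 (median 5.80), and at 8.18 in D121, against 6.27 to 7.51 (median 6.48), a difference of 1.89 ± 0.27 (adjusted p = 2.58e-06). For both genes the 3 lymphomas lay above all 40 others.

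From the list of plasmacytoid dendritic cell genes, 9 were kept, of which 2, Irf8 and Tcf4, are also B cell factors, whose p-values are not given. Of the other 7, 3 were higher: Ly6d, a lymphoid progenitor antigen (3.20 ± 0.86, adjusted p = 0.0134), Bst2, the interferon-induced tetherin (2.06 ± 0.37, adjusted p = 0.00012), and Lair1, an inhibitory collagen receptor (1.44 ± 0.42, adjusted p = 0.0253). Over all tested genes 4.43% were higher. In limma 4 of these 7 had an unadjusted p under 0.05. The median over the 9 was 1.52, beside -0.04 for all kept genes. The list averaged 1.15 in D55, 1.88 in D92 and 1.03 in D121, against -0.76 to 1.51 in the others. D92 lay above all 40 and D55 and D121 above 39, the exception being D46. The calls of Ly6d and Lair1 were lost without D55 (adjusted p = 0.112 and 0.136) and without D92 (0.0835 and 0.373), and that of Ly6d also without D121 (0.0642), whereas those of Flt3, Batf3, Bst2 and Cd4 were kept when any of the 3 was left out. Past 4-fold, 6 genes of this list were higher in D92, 1 in D55 and 2 in D121. Cox6a2, a cytochrome oxidase subunit, differed by 3.09 in D92, -0.46 in D55 and 0.07 in D121, and Ccr9, a chemokine receptor, by 2.55, 1.13 and 0.82 in the same order. Other probe sets of Ccr9 gave only 0.56 and 1.15 in D92. The remaining tested genes of the list had mixed signs. Irf7 differed by 0.41 in D92, -0.13 in D55 and -0.36 in D121. Pacsin1 differed by -0.39, 0.54 and 0.31 in that order in 1 probe set, and by -0.35, 0.73 and 0.06 in another. In the dendritic cell list 2 of 8 tested genes were higher, Flt3 and Batf3, and 3 of the 8 had an unadjusted p under 0.05. The median over its 9 kept genes was 0.01, beside -0.04 for all kept genes, with 3 of the 9 above the mean of the others in all 3 lymphomas and 2 below it. Itgax, the CD11c integrin, differed by 3.48 in D92, above all 40 others, and by 0.98 in D55 and 0.03 in D121.

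Markers of other cells are given beside the 4.43% of all tested genes that were higher. In the macrophage list 2 of 23 genes were higher, Mpeg1 (3.24 ± 0.84, adjusted p = 0.0101) and Cd68 (2.97 ± 0.86, adjusted p = 0.025), while the defining markers C1qa (-0.44 ± 1.07, adjusted p = 0.886) and Csf1r (-0.84 ± 0.72, adjusted p = 0.617) did not pass. In this list 4 of 23 genes had an unadjusted p under 0.05. The macrophage list averaged 0.29 in D55, -0.11 in D92 and -0.17 in D121, against -1.18 to 2.71. In the monocyte list 2 of 15 were higher, S100a4 and Tyrobp, an adaptor of activating receptors (2.78 ± 0.71, adjusted p = 0.00902), and 5 of the 15 had an unadjusted p under 0.05. The calls of Mpeg1 and Cd68 were each lost without D55, D92 or D121 (adjusted p 0.0504 to 0.165), and that of Tyrobp without D55 or D92. No gene passed in limma in the NK (13 tested), neutrophil (13), fibroblast (21) or endothelial (19) lists, in which 0, 0, 1 and 1 genes had an unadjusted p under 0.05, and the averages of these lists lay inside the range of the others in all 3. A fit with the averages of the T cell receptor, macrophage, neutrophil and fibroblast lists as covariates gave 461 higher and 296 lower genes. The monocyte, NK, endothelial and dendritic lists were not in that fit. Its covariates also hold called genes such as Cd7 and Mpeg1, so nothing is read from its counts. The part of other cells in these results was not tested further.

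**Figure D3:**
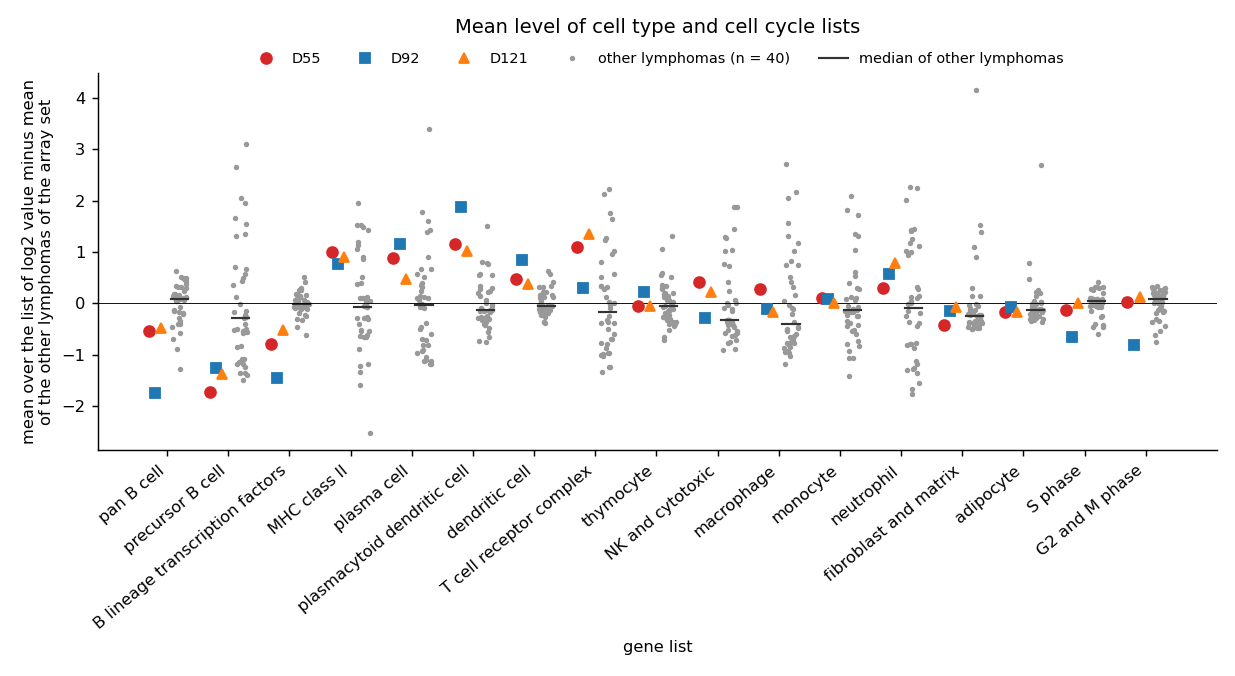
Averages of gene lists by array. Each point is the mean over the measured genes of a list of log2 value minus the mean of the other lymphomas of the array set, with coloured symbols for D55, D92 and D121 and grey points for the 40 other lymphomas (bar, median). The 3 lie at the low end of the B cell factor and precursor lists and at the high end of the plasmacytoid dendritic cell list, and D92 is lowest of all lymphomas in the S and G2/M lists.

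The other genes among the 12 with the highest shared differences came from several functions. Chdh, the choline dehydrogenase of mitochondria, stood at 9.79 in D55, 10.26 in D92 and 9.07 in D121, against medians of 4.50 and 4.29 in the others of sets 1 and 2 (5.04 ± 0.57, adjusted p = 1.45e-08), and 1 other lymphoma, D83, lay above D121, with a difference of 4.88 against 4.67. Pdia5, a protein disulfide isomerase of the endoplasmic reticulum, differed by 4.10 in D55, 4.79 in D92 and 3.58 in D121, with no other lymphoma above 1.65 (adjusted p = 1.6e-11). Fads3, of the fatty acid desaturase family, differed by 3.63, 4.69 and 3.26 in D55, D92 and D121, with no other above 1.61, although its second probe set gave 0.79. Iqgap2, a cytoskeletal scaffold (3.55 ± 0.59), and S100a4, a calcium-binding protein (3.62 ± 0.76), were high in all 3 as well. Wfdc21, a secreted whey acidic protein family member, and Nfkbiz, a nuclear inhibitor of kappa B protein, were carried mainly by D55 and D121: Wfdc21 differed by 5.81 in D55, 0.79 in D92 and 5.53 in D121, and Nfkbiz by 5.13, 1.36 and 4.90. Of these 12 genes 10 kept their call when any of the 3 was left out. Wfdc21 lost it without D55 (adjusted p = 0.0785) and Glipr1 without D55 or D92 (0.0538 and 0.0715).

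Among the 12 lowest shared differences, Sdc4, the heparan sulfate proteoglycan syndecan 4 whose promoter is among those printed, led. It stood at 5.52 in D55 and 4.97 in D92, against 7.09 to 11.31 (median 10.07), and at 7.38 in D121, against 10.80 to 11.31 (median 11.05), a difference of -4.40 ± 0.50 (adjusted p = 1.45e-08). Nmi, an interactor of Myc family and STAT proteins, stood at 6.76 in D55 and 5.38 in D92, against 8.45 to 10.03 (median 9.09), and at 7.95 in D121, against 9.63 to 10.11 (median 9.68), a difference of -2.67 ± 0.22 (adjusted p = 3.08e-12). Both genes were lower in all 3 than in any other lymphoma once set means were removed. Mgst1, a microsomal glutathione transferase, differed by -3.09 in D55, -3.11 in D92 and -3.16 in D121 (adjusted p = 0.00127), while its second probe set gave 0.01. Otub2, a deubiquitinase, differed by -2.86 ± 0.57 (adjusted p = 0.000575). These 4 kept their calls when any of the 3 was left out.

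The other 8 lost the call in at least 1 of those fits. They were the actin-binding Cnn3 (-4.01 ± 1.0), the kinase anchor Akap12 (-3.49 ± 0.94), the stearoyl-CoA desaturase Scd1 (-3.15 ± 0.68), the RNA-binding Igf2bp3 (-2.88 ± 0.80), the galectin Lgals9 (-2.81 ± 0.78), Emid1 (-2.73 ± 0.75), the LIM protein Csrp2 (-2.70 ± 0.75) and the ERK phosphatase Dusp6 (-2.64 ± 0.78). Their highest adjusted p over the 3 fits ranged from 0.147 for Igf2bp3 and Emid1 to 0.387 for Lgals9. Cnn3 and Scd1 were lowest in D92, at -6.11 and -5.04, against -4.00 and -2.80 in D55 and -1.71 and -1.46 in D121.

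D55 and D121 were closely alike, although they lie in different array sets and were each set against other arrays. Over the 8541 genes their differences had a Pearson r of 0.843, the highest of 252 pairs of a set 1 with a set 2 lymphoma. The next pair, D88 and D163, had 0.806, D92 and D121 had 0.525 (rank 8), and the 204 pairs of other lymphomas had a median of -0.018. That median near 0 is built in, because the other lymphomas were centred on their own mean. The 3 were left out of that mean, so the median is no reference for their r. This r is across genes, which are not independent replicates, and it is given as a description. Past 4-fold, 1.45% of these genes were higher in D55, 1.89% in D92 and 1.12% in D121, and 0.632%, 0.913% and 0.421% were lower. The other lymphomas had between 5 and 510 such higher genes (median 24.5) and between 2 and 72 such lower ones (median 17). These counts tend to be lowered because each of the other lymphomas was part of its own mean. D55 and D121 shared 81 of the higher genes, 65.3% of those of D55 and 84.4% of those of D121. D92 and D121 shared 47, 29.2% of those of D92 and 49.0% of those of D121. In all 3, 43 genes were past 4-fold higher and 18 past 4-fold lower.

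**Figure D4:**
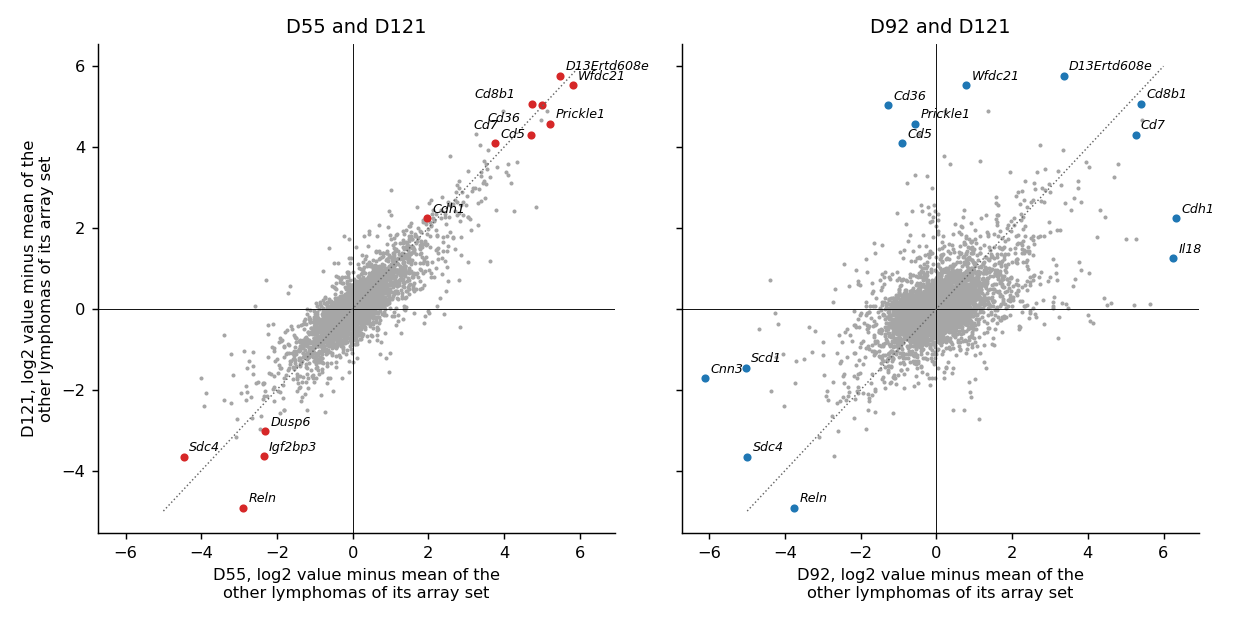
Profiles of D55 and of D92 against that of D121. Each point is 1 of 8541 genes outside the B cell lists, as log2 value minus the mean of the other lymphomas of the array set, with some genes named in the text in colour and the dotted line marking equal values. D55 and D121 run along the line (r = 0.843), and D92 leaves it with Cdh1 and Il18 high and Wfdc21, Cd36, Prickle1 and Cd5 near or below 0.

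In 25 genes D55 and D121 were past 4-fold higher while D92 was within 2-fold of the mean or below it. Cd36, a scavenger receptor for fatty acids, stood at 11.90 in D55 and 11.92 in D121, but at 5.63 in D92, and in the others it ranged from 4.82 to 11.76 in set 1 (median 6.19) and from 5.08 to 8.21 in set 2 (median 6.88). It did not pass as a shared difference (2.85 ± 1.2, adjusted p = 0.173). Cd5, a surface regulator of T cells and of B-1 cells, differed by 3.77 in D55 and 4.09 in D121, above all 40 others, and by -0.90 in D92. Cd28, a co-stimulatory receptor of T cells, differed by 2.57, 0.20 and 3.78 in D55, D92 and D121, and its call (adjusted p = 0.044) was lost without D55 or D121 (0.266 and 0.433). Prickle1, a planar polarity protein, differed by 5.22 in D55 and 4.58 in D121, and by -0.56 in D92. Foxi1, a forkhead factor, and Tmprss13, a membrane serine protease, differed by 3.27 and 3.98 in D55 and by 4.32 and 4.90 in D121, while D92 stood at -0.45 and 0.22. In the other direction only Selenbp1, a selenium-binding protein named after its values were seen, was past 4-fold lower in D55 and D121 (-3.05 and -2.73) while D92 was not lower by 2-fold (1.12).

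Among these 25 genes 4 are neighbours on chromosome 13: Gm20767, AF067061, BC147527 and Tcstv3. They lie, in RefSeq's GRCm38.p6 annotation, in a row of 31 genes, many of them annotated as pseudogenes, that begins at AF067063 and holds D13Ertd608e too. This group was singled out after its values were seen. D13Ertd608e, the gene with the highest difference of all in D121, differed by 5.48 in D55, 3.36 in D92 and 5.77 in D121. Gm20767 differed by 4.27, -0.03 and 2.43 in D55, D92 and D121, AF067061 by 4.84, -0.22 and 2.52, BC147527 by 3.39, -0.26 and 3.29, and Tcstv3 by 3.53, 0.35 and 3.59. Thus 5 of the 7 measured genes of the row were past 4-fold in D55 and D121, and AF067063 and Tcstv1 were not. BC147527 and Tcstv3 were kept in the test only through the 3 arrays. Genes of this row form families of similar copies, their probe sets may read each other's transcripts, and the 5 values cannot be taken as those of 5 separate genes. Of the other lymphomas, 5 were past 4-fold higher in D13Ertd608e (highest D46, 4.33) and 2 in BC147527 (highest D52, 2.45). For AF067061 and Gm20767 only D89 was past 4-fold (4.08 and 3.68), and for Tcstv3 only D52 (2.02).

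In 49 genes D92 alone was past 4-fold higher, with D55 and D121 within 2-fold of the mean or below it. With 1 probe set per gene, the highest genes of D92, whatever D55 and D121 did, were Cdh1 and Il18. Cdh1, the adhesion protein E-cadherin, stood at 10.17 in D92, against 5.82 in D55 and 6.23 in D121, and the others ranged from 3.22 to 8.15 in set 1 (median 3.62) and from 3.85 to 4.18 in set 2 (median 3.98). Cdh1 passed as a shared difference (3.55 ± 0.57, adjusted p = 2.01e-05), since D55 and D121 each lay above 39 of the 40 others. Il18, a cytokine of the interleukin 1 family, stood at 13.20 in D92, against 8.13 in D55 and 8.79 in D121, and its call (2.95 ± 0.68, adjusted p = 0.00296) was lost without D92 (adjusted p = 0.563). Dsp, the desmosomal protein desmoplakin, differed by 5.63 in D92, 0.20 in D55 and 0.11 in D121, and Prom1, the membrane protein CD133, by 5.01, -0.10 and 1.73. Other probe sets of Dsp gave 7.02 and 0.34 in D92. Bex6 (5.21) and the transporter Slc47a1 (4.6) were high in D92 only, and Klk1b27, from the kallikrein family of near-identical genes, differed by 5.27 in D92, 1.5 in D55 and 1.73 in D121. Cd163, the haemoglobin scavenger receptor of macrophages, differed by 4.52 in D92, -0.26 in D55 and 0.10 in D121, while C1qa differed by -1.30 in D92. For Dsp, Bex6, Prom1 and Hipk3 the shared call rested on D92 too (adjusted p 0.448 to 0.975 without it), and Bex6 was kept in the test only through the 3 arrays, so nothing is read from its call.

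**Figure D5:**
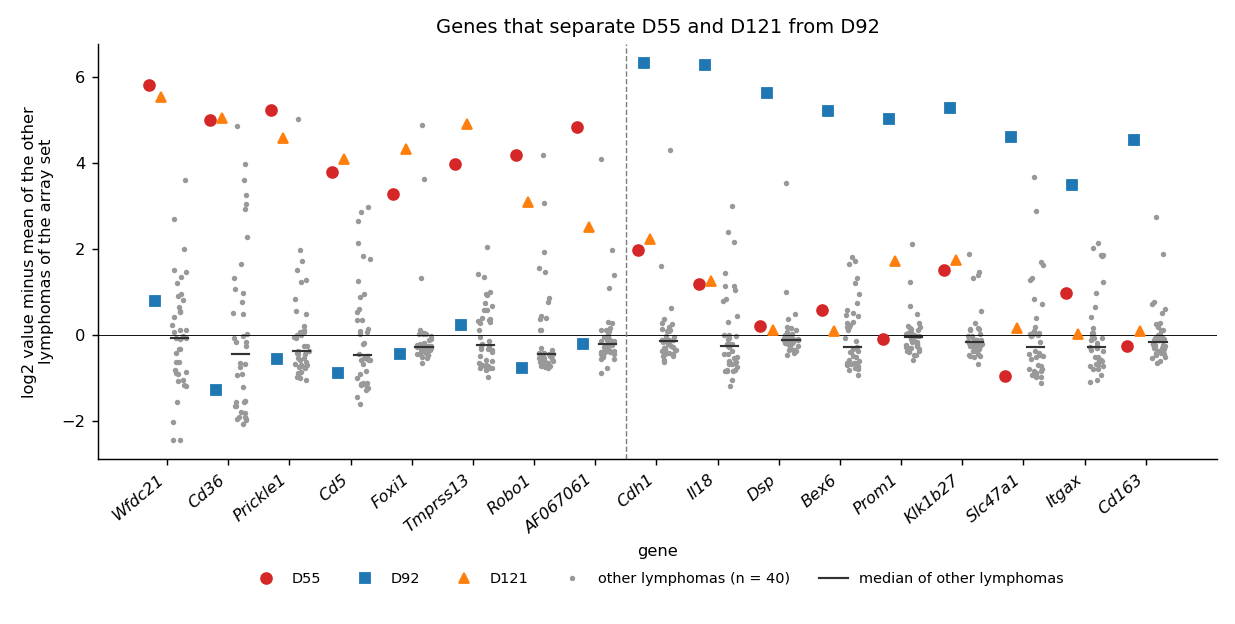
Genes that separate D55 and D121 from D92. Each point is 1 array, as log2 value minus the mean of the other lymphomas of its array set, with coloured symbols for D55, D92 and D121 and grey points for the 40 other lymphomas (bar, median). Left of the dashed line D55 and D121 are high and D92 lies with or just below the grey points, and right of it D92 is the highest lymphoma in every gene.

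D92 was also set apart by low values. It had 78 genes past 4-fold lower, more than any of the other 40 lymphomas, of which the highest had 72. Each of those 40 was part of its own mean, which tends to lower its count, so this rank may turn on it. Hipk3, a nuclear kinase, differed by -4.70 in D92, -0.49 in D55 and -0.50 in D121, against -0.73 to 1.02 in the others. Genes of cell division were low in D92 and ordinary in D55 and D121. The 3' minus 5' difference of D92, 0.93, was among the higher ones, with D84 and D85 above it, and its part in the low values was not tested. The S phase list averaged -0.66 in D92, -0.13 in D55 and -0.00 in D121, against -0.59 to 0.42, and the G2/M list averaged -0.81, 0.03 and 0.11, against -0.75 to 0.34. Cdk1, the mitotic kinase, differed by -1.25 in D92, -0.17 in D55 and -0.20 in D121, and Rrm1, a subunit of ribonucleotide reductase, by -1.31, 0.03 and 0.03. Over the 3 together none of 22 S phase and 24 G2/M genes passed in limma, and 7 and 4 of them had an unadjusted p under 0.05.

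Myc and its programme did not separate the 3. Myc stood at 10.59 in D55 and 10.27 in D92, against 9.15 to 11.44 (median 10.54) in the others of set 1, and at 11.22 in D121, against 9.90 to 11.78 (median 11.34) in set 2 (adjusted p = 0.999, SE 0.34). None of 18 Myc metabolic targets and 25 ribosome biogenesis genes passed in limma, with 2 and 0 of them at an unadjusted p under 0.05. Ptprc, which encodes the leukocyte antigen CD45, differed by 0.55 in D55, 0.10 in D92 and 0.43 in D121 (adjusted p = 0.652). Cdkn2a, whose products restrain Myc-driven growth, differed by -0.53, -2.89 and -2.04 in D55, D92 and D121, within a range of -3.81 to 3.69 (adjusted p = 0.554). Xist stood at 10.79 in D55, 12.64 in D92 and 12.49 in D121, and Eif2s3y, a gene of the Y chromosome, at 3.34, 3.90 and 4.51. Xist in D121 lay just above the highest of the 6 others of set 2 (12.47), and the other 5 values lay within the range of the other lymphomas of the set. In D55, D92 and D121 Xist differed by 1.01, 2.86 and 2.94 and Eif2s3y by -2.63, -2.07 and -1.61. Eif2s3y lay above the set median in 18 of the 43 lymphomas, and the 3 were not among them. Sex was not in the fit, and its part in the differences was not tested. None of 19 genes of the p53 target list passed in limma (4 at an unadjusted p under 0.05), and in the BCL2 family list 1 of 12 did, Bad, which promotes cell death (0.54 ± 0.17, adjusted p = 0.0349). The call of Bad was lost without D55, D92 or D121 (adjusted p = 0.21, 0.237 and 0.0669).

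The highest and lowest shared genes were also counted in each lymphoma. They were chosen because they separate the 3 from the others, so these counts are a description only. Of the 12 highest shared genes, D55 and D121 had 12 and D92 had 10 past 4-fold. Among the other lymphomas D46 had 6 and D163 had 4, D52 and D53 had 3 each, and 23 of 40 had none. Of the 12 lowest shared genes D92 had 12, D55 had 11 and D121 had 9 past 4-fold lower, and the most among the others was 7, in D89. D46 was also the other lymphoma with the highest average of the plasmacytoid dendritic cell list (1.51) and of the T cell receptor list (2.22).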

How the data were processed

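Total RNA of 43 lymphomas and 1 spleen had been hybridised to Affymetrix mouse arrays. Per the submitters' processing notes, the authors made the deposited log2 values, 1 per probe set, with RMA and affy (versions not given in the sources used here). Of 22690 probe sets, 64 were controls, 20380 had 1 gene symbol and were used. Another 691 had several symbols and 1555 had none. Symbols came from the platform annotation, checked against GRCm38.p6 by Entrez identifier (20351 matched, 0 renamed). Each of 12393 genes was represented by its probe set of highest mean. Genes above the set's median in 1 or more lymphoma arrays were kept (8629), and 52 were kept only through the 3 Cd79a-low arrays (36 of these were called higher). RMA and the sets are as deposited: no step here rescales the values, so the array set entered as a covariate.

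The 3 lymphomas were compared with the other 40 by limma 3.58.1 in R 4.3.3 (lmFit, eBayes with an intensity trend, 40 residual degrees of freedom, two-sided, Benjamini-Hochberg over all kept genes, threshold 0.05). SE is the standard error of the fit. Genes of the B cell lists (88 kept) entered the fit and the adjustment, but their p-values are not given. Single arrays have no replicate, so their genes are described past 4-fold (2 log2 units). A list's average is the mean of its measured genes. The procedure was tested on simulated data. Beside the B cell genes, the text takes names from the 12 highest and 12 lowest shared differences (1 is not reported here) and takes other names from the 12 highest and 8 lowest of each array and from up to 4 genes of each list. The 3 lymphomas, the lists and the rule for named genes were chosen with earlier results of these data known. Alternatives concerned the probe set, filters, scaling, eBayes, covariates and arrays left out.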

Additional observations from a re-analysis of the deposited data

Results flagged for a closer look

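Probe sets with several gene symbols or none were left out of the comparison. Tested in the same way with limma, 51 of 1229 such probe sets were higher and 32 lower in the 3 Cd79a-low lymphomas than in the other 40. Among the 8541 genes tested, 378 (4.43%) were higher and 195 (2.28%) lower, and nothing is read from the counts of these probe sets beside those shares. The probe sets are listed here only because they lie outside the genes reported, and they carry no gene name here.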

How the results depend on the processing

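No paired analysis was possible because the labels name no animal, batch or replicate number by which to pair the 3 Cd79a-low lymphomas with the other 40. Of 378 higher and 195 lower genes in the comparison, counts stayed within 1.5 times under the other probe set rule, filters, scaling, eBayes settings, the 3' minus 5' covariate, set 1 only and without D59. They ranged from 189 to 264 higher and from 72 to 125 lower when 1 of the 3 was left out, the lowest counts coming without D92. Averaging D55 and D121 (chosen after seeing the data) gave 248 and 105, and set 2 alone, where D121 is the only array of its group and is assumed to vary like the 6 others, gave 24 and 2. Without the array set, in the fit and in the filter, 61 of 8961 were lower. With the averages of the T cell receptor, macrophage, neutrophil and fibroblast lists as covariates 296 were lower, and array weights gave 1296 and 1415. The cause of these shifts was not tested. In single arrays the threshold set the count: 2-fold gave 431 higher and 254 lower genes in D55, 518 and 395 in D92 and 329 and 214 in D121, 8-fold gave 47 and 11, 52 and 20, and 33 and 5, and genes also outside the range of the other lymphomas numbered 78 and 29, 105 and 43, and 52 and 14. Centring on the median, averaging probe sets, no filter, quantile scaling and equal medians left these counts within 1.5 times. Of 76 named genes with a test, 52 passed, and 21 of these kept the call without each of the 3 in turn.

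Some named genes changed sign, none of which kept a call there. Leaving out 1 of the 3 at a time gave log2 differences of -1.08 to 0.02 for C1qa, -0.09 to 2.45 for Cd163, -0.74 to 0.30 for Cd3d, -0.34 to 0.06 for Cd3e, -0.21 to 1.68 for Cox6a2, -0.07 to 0.10 for Myc, -0.68 to 0.03 for Rrm1 and -0.44 to 2.51 for Slc47a1, with the change of sign always in the fit without D92. With array weights it was 0.47 for C1qa, 0.38 for Cd3d, 0.14 for Cd3e, -0.10 for Cox6a2 and -0.16 for Slc47a1. In set 2 alone it was 0.43 for Cd3d, 0.11 for Cd3e, -0.21 for Hemgn, 0.07 for Myc and 0.03 for Rrm1. With other-cell covariates it was -1.19 for Cd3g, -0.33 for Cd8a and 0.33 for Myc, and Myc was also 0.13 without the array set, 0.03 with the 3' minus 5' covariate and 0.00 after quantile scaling.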

Other observations

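Over all tested genes 4.43% were higher and 2.28% lower, and the counts of further lists are given beside these shares. In the stem and progenitor list 1 of 15 tested genes was higher, Flt3, and 1 lower, Lyl1, a basic helix-loop-helix factor of early blood cells (-0.95 ± 0.24, adjusted p = 0.00899), whose call was lost without D92 (adjusted p = 0.22). In the interferon response list only Bst2 of 18 was higher, so this list did not move as a whole: its average was -0.04 in D55, 0.23 in D92 and -0.16 in D121, against -0.96 to 3.47 in the other lymphomas. In the erythroid list 1 of 8 passed, Hemgn, which differed by 3.25 in D92, 0.59 in D55 and -0.21 in D121 and was kept only through these arrays. Its call was lost without D55 (adjusted p = 0.0504) and without D92 (0.965), and nothing is read from it. In the adipocyte list 1 of 13 passed, Scd1, lower, and in the epithelial list 1 of 14, Cdh1, higher. Limma called 0 of 19 glycolysis genes, 0 of 22 genes of oxidative phosphorylation and 0 of 14 common leukocyte genes, with 4, 2 and 3 of them at an unadjusted p under 0.05. The BCL2 family list averaged 0.40 in D92, above all 40 other lymphomas, and 0.17 in D55 and 0.12 in D121, with Bbc3, which encodes the cell death protein PUMA, at 1.88 in D92, 0.66 in D55 and 0.61 in D121 (adjusted p = 0.0623).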
